A study of Homo sapiens with 12 samples.

Results

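The genes described here encode the enzymes of xenobiotic and alcohol metabolism: the cytochrome P450s (CYP), the UDP-glucuronosyltransferases of the UGT1 and UGT2 families, the cytosolic and kappa-class glutathione S-transferases (GST), the sulfotransferases (SULT), the alcohol dehydrogenases (ADH) and the aldehyde dehydrogenases (ALDH). They were chosen by symbol alone, from the gene names given to peaks in 6 lists of RNA bound by METTL16, eIF3a or eIF3b. A total of 54 such names had a peak in at least 1 list, of 10830 genes with a peak. Names that share exons or were placed at a copy's locus received identical or nearly identical peaks, and with those counted once the 54 names stood for 44 loci. GENCODE release 44 annotates 133 protein-coding genes with symbols of these families, so 79 of them had no peak in the lists used here.

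The liver clears foreign compounds in steps. Cytochrome P450s, alcohol dehydrogenases and aldehyde dehydrogenases oxidise a compound, and transferases then attach glucuronic acid, glutathione or sulfate, which makes the product easier to excrete. Ethanol takes the same kind of route, from alcohol to acetaldehyde through ADH enzymes and on to acetate through ALDH2.

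RNA immunoprecipitation followed by sequencing (RIP-seq) was done in HepG2, a human liver cancer cell line. METTL16 is an RNA methyltransferase, and eIF3a and eIF3b are subunits of the translation initiation factor eIF3. HepG2 cells were infected with vectors for 3XFlag-METTL16, 3XFlag-eIF3a or 3XFlag-eIF3b to give stable lines, so each group carried its own overexpressed, tagged protein, and protein was fixed to RNA by ultraviolet light. Each of the 3 groups had 2 RIP samples and 2 inputs without antibody, and no other treatment was named. The labels give a Flag antibody for the METTL16 and eIF3b samples and an antibody to eIF3a itself for the eIF3a samples, so the eIF3a pull-down could also hold untagged protein. The study calls its replicates biological but does not say whether they came from separate cultures, so the tests measure only the spread between these samples. A peak is a stretch of exon where the authors' caller found more RIP than input reads, its fold is the ratio of RIP to input, and its width is counted in exonic bases. Read depth was not part of these lists and is unknown here. A missing peak therefore means only that none was called, and low expression of a gene cannot be told apart from a lack of binding. Here a gene is called bound by a protein where both replicate lists gave it a peak.

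The enzyme genes had peaks less often than protein-coding genes as a whole. Of the 133 annotated genes, 54 (40.6%) had a peak in any list, against 51.5% of all annotated protein-coding genes. The share varied between families. A peak was found for 13 of 19 ALDH genes, 7 of 13 SULT genes, 10 of 19 UGT genes, 8 of 18 GST genes and 3 of 7 ADH genes. Of the P450s, 8 of 37 genes of the CYP1 to CYP4 families and 5 of 20 of the other families had one. Well-known drug- and ethanol-metabolising genes of adult liver were among those with no peak, such as CYP1A2, CYP2D6, CYP2E1, CYP3A4, UGT2B7, GSTA1, ADH1A, ADH1B and ADH1C. Markers of hepatocytes and HepG2 were present for 9 of 11 genes, all but APOH and TTR, with 3 to 9 of them in each list. Of the markers of other cell types, none of 3 fibroblast genes had a peak, the leukocyte gene PTPRC had one in METTL16 replicate 1 alone, and at least 1 of the endothelial genes PECAM1 and VWF had a peak in every list. A peak is no measure of expression, and the part of expression or of other cells in these counts was not tested.

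Among the 54 genes, METTL16 replicate 1 held peaks in 17 (31.5%; 53.8% of all genes with a peak in any list) and METTL16 replicate 2 in 26 (48.1%; 58.5% of all genes). The eIF3a replicates held 43 (79.6%; 75.4% of all genes) and 23 (42.6%; 48.3% of all genes). The eIF3b replicates held 41 (75.9%; 74.5% of all genes) and 27 (50%; 69.9% of all genes). Both METTL16 lists thus lay below both eIF3b lists, in these genes and in all genes alike, while the eIF3a replicates spanned the widest range. METTL16 averaged 39.8% ± 11.8, eIF3a 61.1% ± 26.2 and eIF3b 63.0% ± 18.3 (SD, n = 2 each). By the two-sided exact permutation test over samples, METTL16 minus eIF3b was -23.1 percentage points with p = 0.333, which is the smallest p that 2 against 2 samples can give. METTL16 minus eIF3a was -21.3 points (exact permutation p = 0.667) and eIF3a minus eIF3b was -1.85 points (exact permutation p = 1), and in these the groups overlapped. With 1 sample left out, METTL16 minus eIF3b ran from -10.2 points (without eIF3b replicate 1) to -36.1 points (without eIF3b replicate 2), and METTL16 minus eIF3a from -2.78 points (without eIF3a replicate 1) to -39.8 points (without eIF3a replicate 2). With the 5000 peaks of smallest p in each list both turned, to 2.78 and 4.63 points. With shared loci counted once, the shares were 38.6% and 56.8% for METTL16, 77.3% and 31.8% for eIF3a, and 70.5% and 59.1% for eIF3b.

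**Figure D1:**
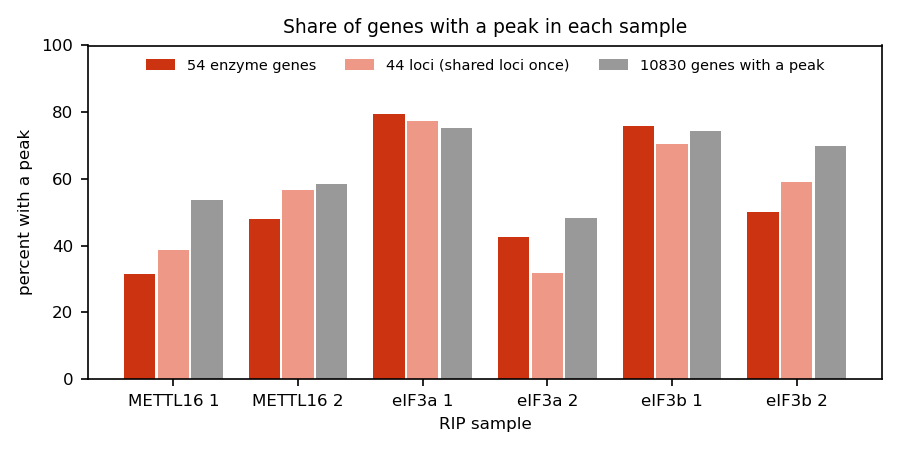
Percent of the 54 enzyme genes (red), of their 44 loci (pink) and of the 10830 genes with a peak in any list (grey) that had a peak in each of the 6 RIP samples. Both METTL16 samples lie below both eIF3b samples in all 3 sets, and METTL16 replicate 1 shows the widest gap between the enzyme genes (31.5%) and all genes (53.8%).

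METTL16 bound 15 of the 54 genes in both replicates (27.8%, against 42.6% of all genes with a peak), eIF3a bound 22 (40.7%, against 42.4%) and eIF3b bound 23 (42.6%, against 60%). Of the 22 genes bound by eIF3a, 9 were names of the single UGT1A locus, and as loci the count fell to 13 of 44 (29.5%). A peak in all 6 lists was found for 5 genes (9.26%, against 25.2% of all genes): the P450s CYP20A1, CYP24A1 and CYP2W1 and the aldehyde dehydrogenases ALDH3A2 and ALDH4A1. No peak in either METTL16 list was found for 26 genes (48.1%, against 30.2%), or 17 loci. A peak in 2 or more lists was found for 42 genes (77.8%, against 83.9%). The other 12 genes, each with a peak in 1 list only, were ADH6 and SULT2B1 in METTL16 replicate 2, CYP19A1, CYP2U1, CYP4F2, GSTM1 and UGT2B10 in eIF3a replicate 1, GSTM4, GSTO2, GSTT2 and GSTT2B in eIF3b replicate 1, and CYP51A1 in eIF3b replicate 2. Genes in both replicates made up 50% of those in either for eIF3a, near the 52.3% over all genes. The shares were 53.6% for METTL16 (61.1% over all genes) and 51.1% for eIF3b (71.0%). With shared loci counted once, they were 15 of 27 (55.6%) for METTL16, 13 of 35 (37.1%) for eIF3a and 22 of 35 (62.9%) for eIF3b.

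**Figure D2:**
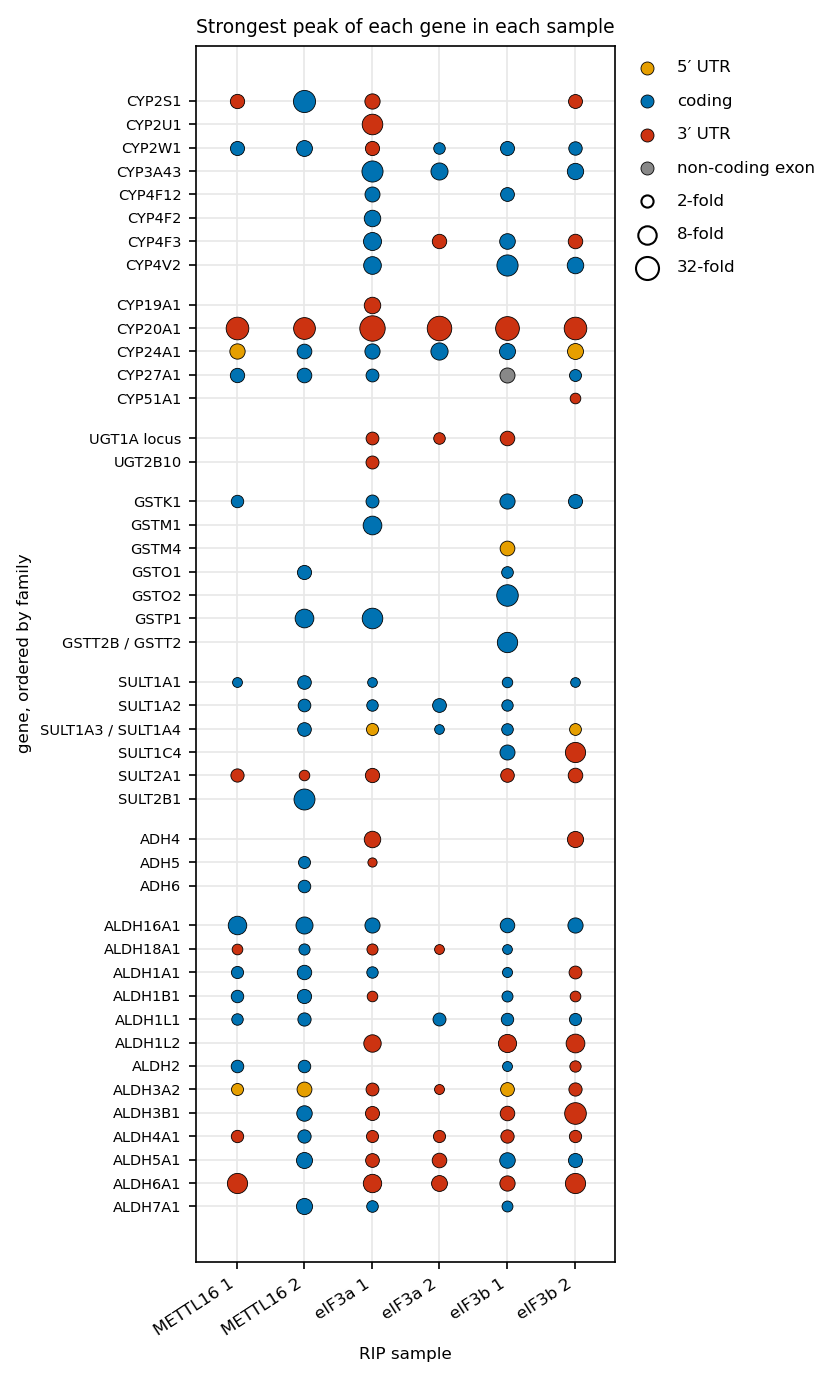
Strongest peak of each of the 44 loci (rows, by family) in each of the 6 RIP samples (columns). Dot area rises with the log2 of the fold over input, colour gives the part of the transcript in which that peak was centred, and an empty cell means no peak; CYP20A1 carries large 3′ UTR dots in all 6 columns, and the ALDH rows are the most filled.

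The strongest peak of an enzyme gene was usually low among genes. Each locus was ranked by its strongest fold among all genes of the same list, and the median rank of the loci lay between the 14.8th percentile (METTL16 replicate 1) and the 33.9th (eIF3a replicate 1). The median of those strongest folds was 2.15 and 3.11 in the METTL16 lists, 2.99 and 2.53 in the eIF3a lists and 3.20 and 2.88 in the eIF3b lists, whereas the median over all genes ran from 3.62 to 4.64. A strongest fold of 4 or more was reached by 3 of 17 (17.6%) and 8 of 25 (32%) loci for METTL16, 12 of 34 (35.3%) and 4 of 14 (28.6%) for eIF3a, and 7 of 31 (22.6%) and 9 of 26 (34.6%) for eIF3b. The shares over all genes were 50.5% and 52.8%, 50% and 45.4%, and 56.9% and 50.1% in the same order. Counted per peak rather than per gene, the folds were not lower in every list. The median over the peaks of these loci was 2.97 and 2.66 for METTL16, 3.09 and 3.23 for eIF3a, and 2.90 and 2.88 for eIF3b, against 3.09 and 3.40, 2.98 and 2.73, and 3.20 and 2.94 over all peaks, so it was higher in both eIF3a lists. Without CYP20A1 it was 2.08 and 2.49, 2.54 and 2.31, and 2.62 and 2.52, below that of all peaks in each list. The loci also had less exon sequence, a median of 4192.5 bases in the union of their exons against 5514 for all genes with a peak, and the part of length in these ranks was not tested. The median GC content of the exons was 48.0% for these loci and 48.8% for all genes with a peak.

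Some loci ranked high in single lists, such as CYP2S1 (93.3rd percentile, METTL16 replicate 2) and ALDH3B1 (95.1st, eIF3b replicate 2). CYP20A1, an orphan P450 with no established substrate, was the only one to rank high in all 6 lists, at the 91.4th percentile or above. Its strongest peak reached 28.5-fold and 21.4-fold in the METTL16 replicates, 74.4-fold and 53.8-fold in the eIF3a replicates, and 41.2-fold and 27.9-fold in the eIF3b replicates. That was the highest fold of any enzyme gene in 5 lists and the next to highest in METTL16 replicate 2, where 165 peaks of the list carried the same value. In the other 5 lists the value was carried by 2 to 26 peaks, that of CYP20A1 included. The gene lies at chr2:203238977-203306026 on the plus strand (GRCh38, as are all coordinates here), and its canonical transcript of 10552 bases has 9118 bases of 3′ UTR. All of its peaks lay in that 3′ UTR: 13 and 3 for METTL16, 12 and 14 for eIF3a, and 11 and 12 for eIF3b. The peaks covered between 4.83% (METTL16 replicate 2) and 53.7% (eIF3b replicate 1) of its exon bases. Peaks of all 6 lists met on 513 bases in 3 stretches, 3896 to 4106, 6264 to 6444 and 8392 to 8512 bases after the stop codon. These 3 stretches were exactly the 3 peaks of METTL16 replicate 2, so that every other list covered each of them in full. Part of this 3′ UTR is repeated elsewhere in the transcriptome. Of all 30-base words under its peaks, 32.7% also occurred on either strand in a transcript of another gene, against 3.28% of those outside its peaks, and single words occurred in up to 2275 other genes. Over all 44 loci, no 30-base word under the peaks occurred in another gene at 15, every word did at 5 (CYP51A1, GSTT2B, SULT1A1, SULT1A3 and UGT1A) and some did at 24. How reads from such sequence were placed is not given in the sources used here, and the part of repeats in these folds was not tested.

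**Figure D3:**
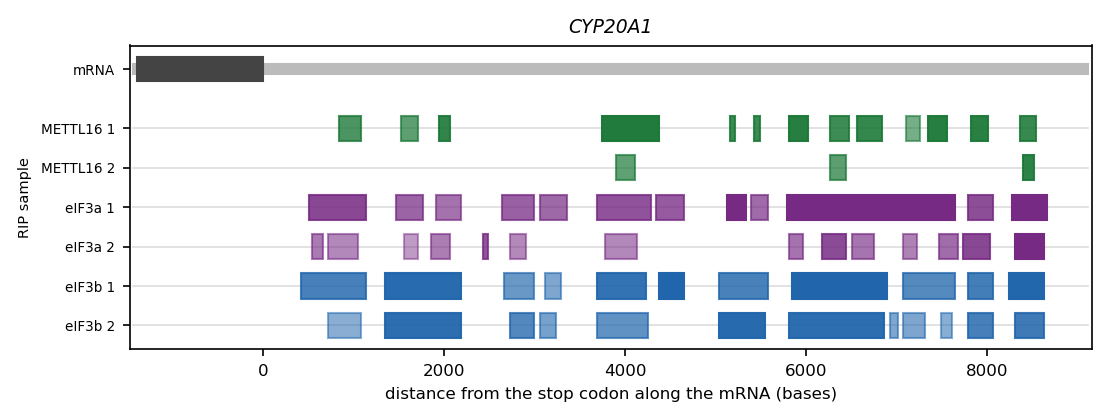
Peaks on the CYP20A1 mRNA in the 6 RIP samples, by distance in bases from the stop codon (x axis). The top bar shows the mRNA with its coding sequence in dark grey, each box is a peak coloured by protein with darker shades for higher folds, and all boxes lie in the 3′ UTR, with 3 peaks in METTL16 replicate 2 and 11 to 14 in the other samples.

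CYP2W1, a P450 of fetal gut and colon tumours that is nearly silent in adult liver, was the member of the CYP1 to CYP4 families found in all 6 lists. Its strongest folds were 2.91 and 4.29 for METTL16, 2.96 and 1.80 for eIF3a, and 2.88 and 2.55 for eIF3b, so the lists lay close together. Peaks of all 6 lists overlapped in exons 6 and 7, over 91 coding bases. The 74 of these in exon 6, at chr7:987172-987245 on the plus strand, are shown in capitals because, with the 17 in exon 7, they are the only coding bases of any enzyme gene that lay under a peak in all 6 lists; the lower case bases before them are from the same exon.
CYP2W1 exon 6: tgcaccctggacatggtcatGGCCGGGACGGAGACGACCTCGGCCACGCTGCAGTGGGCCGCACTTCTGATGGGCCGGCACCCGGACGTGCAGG
This stretch had a GC content of 74.3%. In eIF3b replicate 1 the peak over it was 1197 bases wide and ran on from exon 5 into the 3′ UTR, whereas in eIF3a replicate 2 it was 151 bases wide.

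Of the 8 genes of the CYP1 to CYP4 families with a peak, 6 (75%) had none in a METTL16 list, against 30.2% of all genes, and METTL16 had 2 lists where eIF3 had 4. CYP3A43, a minor member of the CYP3A cluster, had folds of 17.4 and 5.71 in the eIF3a replicates and 4.77 in eIF3b replicate 2, with no METTL16 peak. The peaks of the eIF3a replicates met at a single base, in exon 11, so whether they mark the same site is unknown. CYP4F3, which inactivates leukotriene B4 by omega-oxidation, was bound by eIF3a (7.13-fold and 3.09-fold) and eIF3b (4.04-fold and 3.15-fold) and had no METTL16 peak. Of the 30-base words under its peaks, 41.2% also occurred in another gene, so reads of near-identical copies may be counted there. CYP4V2, a fatty acid hydroxylase mutated in Bietti crystalline dystrophy, was bound by eIF3b (17.8-fold and 4.99-fold), had 6.61-fold enrichment in eIF3a replicate 1 and had no METTL16 peak. CYP2S1 was bound by METTL16, but at different places: a 3.03-fold peak in the 3′ UTR in replicate 1 and a 23.8-fold peak over the start of the coding sequence in replicate 2. CYP2U1, a fatty acid hydroxylase, had a single peak in the 3′ UTR, at 14.9-fold in eIF3a replicate 1.

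High folds of such single peaks were often shared values. The value 14.9 was carried by 315 peaks of eIF3a replicate 1, those of CYP2U1 and GSTP1 among them. Likewise 4.96 was carried by 400 peaks of that list, among them peaks of ADH4, ALDH6A1, CYP19A1, CYP4F2 and CYP4F3. The 17.4 of CYP3A43 was shared by 302 peaks, the 23.8 of CYP2S1 by 108 and the 17.8 of CYP4V2 by 150. The same was true of values given further on. The value 13.2 was carried by 118 peaks of METTL16 replicate 1 (ALDH6A1) and 265 of eIF3b replicate 2 (ALDH6A1 and SULT1C4). Likewise 20.6 was carried by 85 of eIF3b replicate 2 (ALDH3B1) and 13.7 by 240 of eIF3b replicate 1 (GSTT2B). The reason for such equal values was not tested, since reads were not part of these lists.

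Among the P450s of steroid and vitamin metabolism, CYP24A1 and CYP27A1 stood out. CYP24A1, the mitochondrial 24-hydroxylase that inactivates vitamin D, had its strongest peak at 3.75-fold and 3.29-fold for METTL16, 3.67-fold and 5.90-fold for eIF3a, and 4.38-fold and 4.32-fold for eIF3b. In eIF3a replicate 2 a single peak of 1169 bases ran from exon 2 to exon 11. In the other 5 lists its peaks lay in the 5′ UTR and in the coding part of exons 1 to 6, with 1 further peak in the 3′ UTR in eIF3a replicate 1. The METTL16 replicates shared no base on this gene, although 14 of the 15 pairs of lists did. CYP27A1, the mitochondrial sterol 27-hydroxylase of bile acid synthesis, was singled out after its values were seen, because a peak lay at its start codon in 5 lists. The fold there was 3.06 and 3.24 for METTL16, 2.29 in eIF3a replicate 1, and 3.54 and 1.94 for eIF3b, and eIF3a replicate 2 had no peak on the gene. METTL16 replicate 2 also had peaks in exons 5 to 7 (2.49-fold) and exon 8 (1.72-fold), and eIF3b replicate 1 had 1 in exon 8 (1.29-fold). All 5 lists overlapped over 179 bases of exon 1. The 162 coding bases of that overlap, at chr2:218782183-218782344 on the plus strand, begin with the start codon, which is shown in capitals.
CYP27A1 exon 1: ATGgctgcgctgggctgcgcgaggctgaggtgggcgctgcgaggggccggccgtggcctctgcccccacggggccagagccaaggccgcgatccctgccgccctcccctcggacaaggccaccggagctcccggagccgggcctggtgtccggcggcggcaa
The coding part of the overlap was 77.8% GC, against 58.8% for the exons of the gene.

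**Figure D4:**
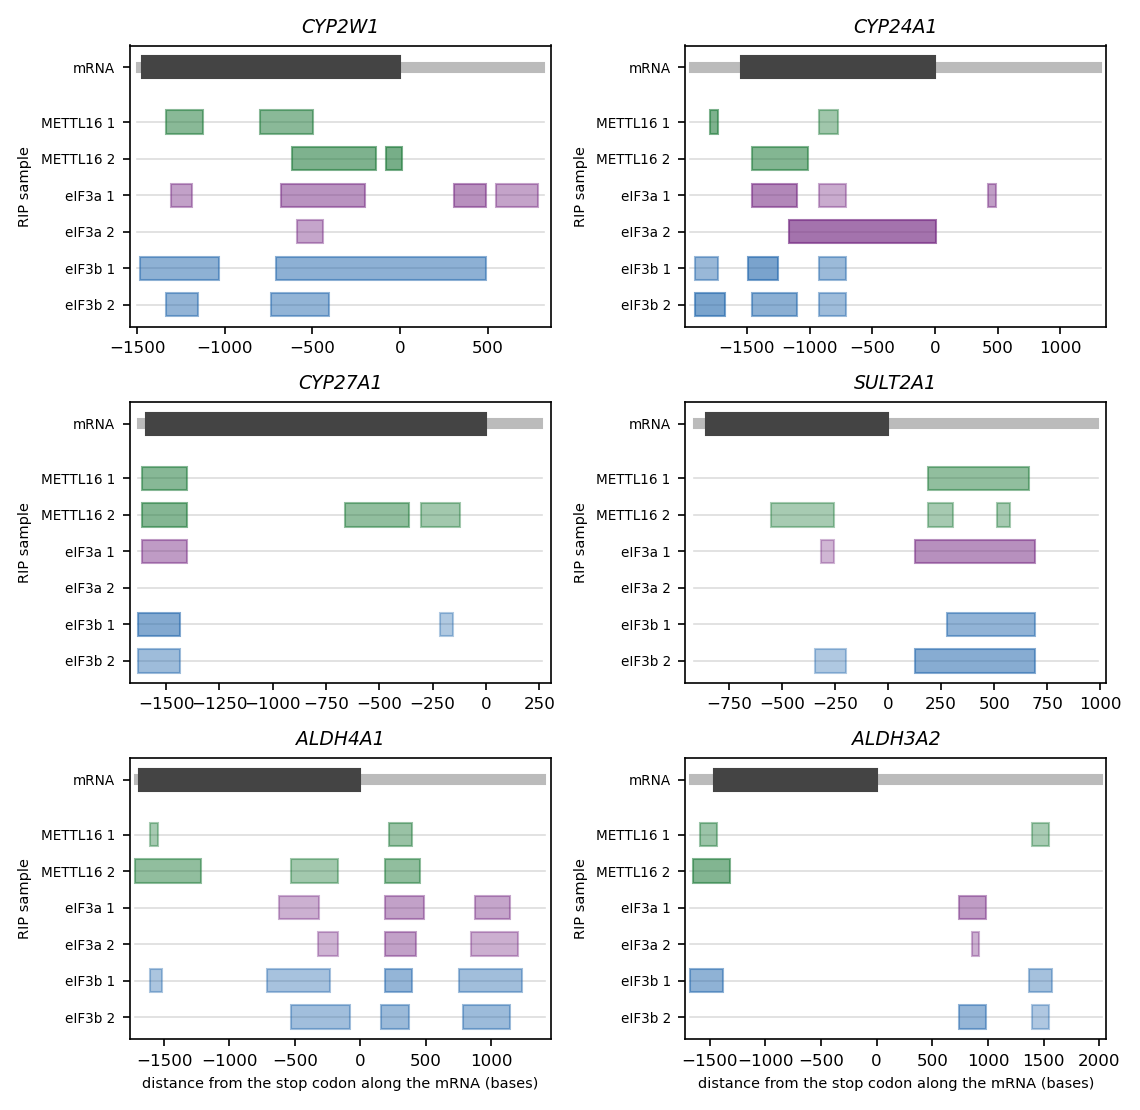
Peaks on 6 mRNAs in the 6 RIP samples, by distance in bases from the stop codon (x axis, own scale per gene). The top bar of each panel is the mRNA with its coding sequence in dark grey, and boxes are peaks coloured by protein, darker for higher folds. CYP27A1 has a peak at the start codon in 5 samples, with further peaks downstream in METTL16 replicate 2 and eIF3b replicate 1. The strongest SULT2A1 peaks lie after the stop codon, and ALDH3A2 peaks fall at either end.

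The alcohol dehydrogenases gave 6 peaks in all. ADH4, ADH5 and ADH6 were the 3 genes with any, and none was bound by a protein in both replicates. ADH6 had 1 peak, at 2.15-fold in METTL16 replicate 2, over exons 2 and 3. ADH1A, ADH1B and ADH1C, the class I enzymes of ethanol oxidation, and ADH7 had none.

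The aldehyde dehydrogenases were the family with the largest share of genes with a peak. Of the 13 ALDH genes with one, METTL16 bound 8 (61.5%, against 42.6% of all genes with a peak), eIF3a bound 5 (38.5%, against 42.4%) and eIF3b bound 11 (84.6%, against 60%). ALDH2, the mitochondrial enzyme that clears acetaldehyde, was the only enzyme gene bound by METTL16 that had no peak in either eIF3a list. Its strongest folds were 2.15 and 2.14 for METTL16 and 1.40 and 1.74 for eIF3b. All METTL16 peaks of ALDH2 lay in the coding sequence, and the replicates shared 241 bases of it. The eIF3b peaks of ALDH2 shared no base, since replicate 1 had its peak in exon 6 and replicate 2 in the 3′ UTR, 201 to 350 bases after the stop codon. Of the 30-base words under ALDH2 peaks, 52.0% also occurred in a transcript of another annotated gene.

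ALDH4A1, the mitochondrial enzyme of proline breakdown, gave the same site in every list. Its strongest folds were 2.08 and 2.47 for METTL16, 1.99 and 2.01 for eIF3a, and 2.49 and 2.06 for eIF3b, which is a narrow range. The 2.47 of METTL16 replicate 2 was a coding peak over exons 1 to 6, and the peak of that list at the common site reached 2.45-fold. A stretch of 151 bases, 219 to 369 bases after the stop codon (chr1:18872476-18872626, minus strand), lay under a peak in all 6 lists, and no 30-base word under the peaks of this gene occurred in another gene. A peak further along the 3′ UTR was called in both eIF3a and both eIF3b lists and covered bases 877 to 1146 after the stop codon in each. Neither METTL16 list had it, and that difference was not tested.

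ALDH3A2, the microsomal enzyme that oxidises fatty aldehydes and is lost in Sjögren-Larsson syndrome, had a peak in all 6 lists but no base under all of them. The peak around its start codon was found in METTL16 replicates 1 and 2 (1.96-fold and 3.40-fold) and eIF3b replicate 1 (2.73-fold). A peak 740 to 978 bases after the stop codon was found in eIF3a replicate 1 (2.29-fold) and eIF3b replicate 2 (2.45-fold), and eIF3a replicate 2 had a 1.40-fold peak of 61 bases within it. A further peak over bases 1396 to 1545 after the stop codon was found in METTL16 replicate 1 (1.50-fold) and in eIF3b replicates 1 (1.66-fold) and 2 (1.36-fold). Neither eIF3a list had a peak at the start codon, and whether that differs between proteins was not tested.

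ALDH6A1, the methylmalonate semialdehyde dehydrogenase of valine breakdown, was the ALDH gene with peaks in the 3′ UTR alone. Its strongest fold was 13.2 in METTL16 replicate 1, 7.99 and 4.26 in the eIF3a lists, and 3.73 and 13.2 in the eIF3b lists, with no peak in METTL16 replicate 2. All 5 lists with a peak met on 182 bases in 2 stretches, 310 to 430 and 2408 to 2468 bases after the stop codon. Of the 30-base words under its peaks, 29.0% also occurred in another gene and 12.1% in at least 100 others.

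ALDH16A1, a family member without the usual catalytic cysteine, had peaks in the coding sequence alone. Its strongest folds were 8.28 and 5.66 for METTL16, 3.62 in eIF3a replicate 1, and 3.20 and 3.67 for eIF3b, so that both METTL16 values were above the other 3. No peak was called in eIF3a replicate 2. The 5 lists met on 90 bases of exon 14, at chr19:49466083-49466172 on the plus strand, shown in capitals with coding bases of the same exon on both sides.
ALDH16A1 exon 14: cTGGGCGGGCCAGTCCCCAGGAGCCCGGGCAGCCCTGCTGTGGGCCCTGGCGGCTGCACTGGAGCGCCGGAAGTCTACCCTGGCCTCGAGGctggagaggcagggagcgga
ALDH1A1, the cytosolic retinaldehyde dehydrogenase, was chosen after its values were seen because the same 5 lists met on 272 of its coding bases, the most of any coding sequence. Its strongest folds were low, 2.01 and 3.11 for METTL16, 1.77 for eIF3a replicate 1, and 1.43 and 2.28 for eIF3b. The shared bases fell in 2 groups, over exons 7 to 9 and exons 11 to 13, and the longest single stretch was the 103 bases of exon 8 at chr9:72918720-72918822 on the minus strand, all of them shared.
ALDH1A1 exon 8: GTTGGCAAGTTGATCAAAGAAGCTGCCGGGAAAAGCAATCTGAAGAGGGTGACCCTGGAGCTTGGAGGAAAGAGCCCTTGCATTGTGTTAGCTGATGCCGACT
No 30-base word under the ALDH1A1 peaks occurred in another gene.

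The other ALDH genes gave mixed positions. ALDH1L2, a mitochondrial formyltetrahydrofolate dehydrogenase, was bound by eIF3b (7.55-fold and 8.81-fold), had a 6.20-fold peak in eIF3a replicate 1 and had no METTL16 peak. Its 3 lists met on 91 bases of exons 7 and 8, although its strongest peaks were in the 3′ UTR. ALDH3B1 had its highest fold, 20.6, in eIF3b replicate 2 just past the stop codon, against 3.90 in METTL16 replicate 2, 2.89 in eIF3a replicate 1 and 3.20 in eIF3b replicate 1, and no pair of its lists shared a base. ALDH18A1, ALDH1B1, ALDH1L1 and ALDH5A1 had peaks in 5 lists each, with no base common to all 5.

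Of the conjugating enzymes, the UDP-glucuronosyltransferases were found only through 1 shared site and 1 further gene. The UGT1A genes, which include the bilirubin-conjugating UGT1A1, differ in their first exon and share the others. All 9 UGT1A names carried a peak at nearly the same bases of the common 3′ UTR. The fold ran from 2.14 (UGT1A9 and UGT1A10) to 2.26 (UGT1A1) in eIF3a replicate 1, from 1.78 (UGT1A7 and UGT1A8) to 1.84 (UGT1A9 and UGT1A10) in eIF3a replicate 2, and from 3.21 (UGT1A1) to 3.40 (UGT1A9 and UGT1A10) in eIF3b replicate 1. There was no peak in either METTL16 list or in eIF3b replicate 2. On UGT1A1 the 3 lists met on 61 bases, 531 to 591 bases after the stop codon. All 30-base words under these peaks occurred in the 8 other UGT1A genes, so the peak cannot be given to any one of them and it counts as 1 locus. UGT2B10 had peaks in eIF3a replicate 1 only, the higher of them at 2.34-fold in the 3′ UTR.

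Glutathione S-transferases other than GSTK1 had peaks in 1 or 2 lists each. GSTK1, the mitochondrial and peroxisomal kappa-class enzyme, was the only one bound by a protein in both replicates, eIF3b (3.66-fold and 2.88-fold). GSTK1 also had peaks in METTL16 replicate 1 (strongest 2.11-fold) and eIF3a replicate 1 (strongest 2.32-fold), and these 4 lists met on 92 bases. GSTO2, an omega-class enzyme with dehydroascorbate reductase activity, had a single peak at 19.8-fold over exons 2 to 4 in eIF3b replicate 1, and that fold was carried by only 5 peaks of the list, with a caller p-value of 1.3e-21. GSTM1 had 1 peak, at 8.68-fold in eIF3a replicate 1, GSTM4 had 2 in eIF3b replicate 1, the higher at 3.32-fold, and GSTT2B and GSTT2 carried the same 13.7-fold peak in eIF3b replicate 1. Reads of GSTM1 and GSTT2B could come from a near-identical copy, since 83.3% and 100% of the 30-base words under their peaks occurred in other genes.

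The sulfotransferases had a 3′ UTR site common to 5 lists, in SULT2A1, and a set of copies. SULT2A1, the liver enzyme that sulfates dehydroepiandrosterone and bile acids, was singled out after its values were seen because its strongest peak lay in the 3′ UTR in all 5 lists with a peak. The folds there were 2.45 and 1.55 for METTL16, 3.02 for eIF3a replicate 1, and 2.64 and 3.22 for eIF3b. The peak was 475 bases wide in METTL16 replicate 1, 565 in eIF3a replicate 1, and 416 and 565 in the eIF3b replicates, whereas METTL16 replicate 2 had 2 peaks of 60 and 119 bases in the same place. Of the words of 30 bases under these peaks, 26.3% occurred in another gene, and none of those outside did. Single words occurred in up to 1128 other genes, and 6.26% of the words in at least 100.

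SULT1A1, the main phenol sulfotransferase, was also chosen after its values were seen, for a stretch of 149 bases of exon 7 shared by its 5 lists (chr16:28606065-28606213, minus strand), shown in capitals with coding bases of the same exon.
SULT1A1 exon 7: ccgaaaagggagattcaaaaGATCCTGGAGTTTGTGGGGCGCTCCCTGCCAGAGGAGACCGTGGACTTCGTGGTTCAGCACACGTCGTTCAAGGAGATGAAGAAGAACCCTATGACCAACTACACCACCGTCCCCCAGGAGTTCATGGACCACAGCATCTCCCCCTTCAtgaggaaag
Its folds were 1.39 and 2.65 for METTL16, 1.36 for eIF3a replicate 1, and 1.52 and 1.36 for eIF3b. All 30-base words under SULT1A1 and SULT1A3 peaks occurred in another gene, as did 69.9% of those under SULT1A2 peaks, so reads there may come from a copy. Peaks named SULT1A4 were placed at the SULT1A3 locus, and these names cannot be separated. SULT1C4 was bound by eIF3b at 3.53-fold and 13.2-fold, in the coding sequence in replicate 1 and in the 3′ UTR in replicate 2, with no peak in a METTL16 or eIF3a list. SULT2B1, which sulfates cholesterol, had 1 peak at 16.7-fold in METTL16 replicate 2 over exons 3 to 5, a value shared by 157 peaks of that list.

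Across the family, where peaks fell within the transcript depended on CYP20A1. Peaks centred in coding sequence made up 45.0% and 83.3% for METTL16 (of 40 and 42 peaks), 43.4% and 30.6% for eIF3a (of 76 and 36) and 57.7% and 40% for eIF3b (of 71 and 60). For the 3′ UTR the shares were 50% and 14.3%, 55.3% and 69.4%, and 35.2% and 56.7% in the same order. Over all genes, the coding share ran from 56.4% to 68.3% and the 3′ UTR share from 23.8% to 38.2%. Without CYP20A1, the coding shares were 66.7% and 89.7% for METTL16, 51.6% and 50% for eIF3a, and 68.3% and 50% for eIF3b.

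Both METTL16 lists had a higher coding share than both eIF3a lists, with and without CYP20A1, and the same order held over all genes (60.7% and 68.3% against 56.4% and 57.7%). The means were 64.2% ± 27.1 and 37.0% ± 9.10 (SD, n = 2 each), a difference of 27.2 points with an exact permutation p of 0.333. It fell to 8.01 points without METTL16 replicate 2 and was 46.4 points without METTL16 replicate 1. The 3′ UTR share was correspondingly lower for METTL16 than for eIF3a, 32.1% ± 25.3 against 62.4% ± 10.0 (SD, n = 2 each; exact permutation p = 0.333), and that difference was -12.4 and -48.1 points without the same samples. The other differences overlapped between groups. METTL16 minus eIF3b was 15.3 points for coding sequence and -13.8 points for the 3′ UTR, and eIF3a minus eIF3b was -11.9 and 16.4 points (exact permutation p = 0.667 for each). The METTL16 minus eIF3b difference rested on METTL16 replicate 2, as without it the coding difference was -3.87 points and the 3′ UTR difference 4.06 points. Over the 12 comparisons of shares and widths, the lowest Benjamini-Hochberg adjusted p was 0.800.

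**Figure D5:**
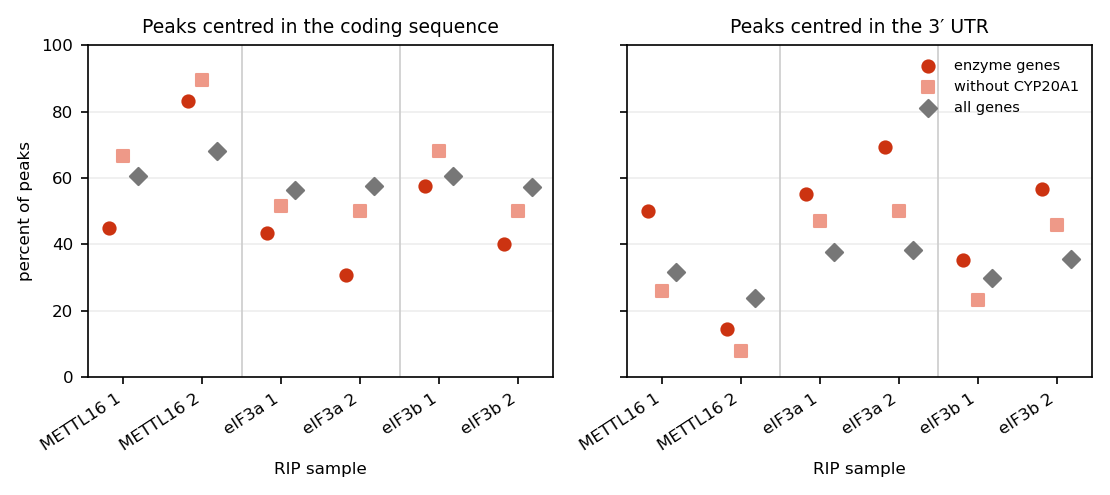
Percent of peaks centred in the coding sequence (left) and in the 3′ UTR (right) in each of the 6 RIP samples, for the enzyme genes (circles), the enzyme genes without CYP20A1 (squares) and all genes (diamonds). Leaving out CYP20A1 raises the coding share and lowers the 3′ UTR share in every sample, and METTL16 replicate 2 has the highest coding share in each set.

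Peaks were short stretches of exon in every list. The median exonic width of enzyme gene peaks was 180 and 225.5 bases for METTL16, 180 and 195.5 for eIF3a, and 181 and 165 for eIF3b, and over all genes it was 180, 180, 180, 210, 210 and 181 bases in the same order. The narrowest peaks had 60 or 61 bases in every list. The widest had 630 and 960 bases for METTL16, 1860 and 1169 for eIF3a and 1197 and 1051 for eIF3b. METTL16 minus eIF3b was 29.8 bases (exact permutation p = 0.667), METTL16 minus eIF3a 15.0 bases (exact permutation p = 1) and eIF3a minus eIF3b 14.8 bases (exact permutation p = 0.667). At least 1 base was shared by the replicates at 11 of 15 loci bound by METTL16 (84.8% of all genes it bound), 11 of 13 bound by eIF3a (81% of all genes), CYP3A43 by a single base, and 17 of 22 bound by eIF3b (88.1% of all genes).

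The sites at which METTL16 methylates U6 and MAT2A RNA hold the letters ACAGAGA. They were searched on the transcript strand and occurred in no METTL16 peak of the enzyme genes, against 3.31% and 3.28% of all METTL16 peaks. They occurred in 1 of the 76 eIF3a replicate 1 peaks and in 1 of the 71 eIF3b replicate 1 peaks, both on CYP4V2. No enzyme gene peak of eIF3a replicate 2 or eIF3b replicate 2 held them. Over all peaks the shares were 3.9% and 5.36% for eIF3a and 4.08% and 4.5% for eIF3b. With at most 1 such peak per list, the enzyme gene counts are too few to tell their shares from those of all genes. The difference was not tested. The mean GC content of METTL16 peaks was 55.8% and 57.9%, that of eIF3a peaks 50.6% and 52.9% and that of eIF3b peaks 56.4% and 51.8%. Over all genes the means were higher in every list, at 59.0% and 60.8%, 53.7% and 53.1%, and 58.1% and 54.1%. That order depended in part on CYP20A1. Without it the enzyme gene means were 59.2% and 58.6%, 51.2% and 54.3%, and 57.8% and 52.8%. METTL16 replicate 1 and eIF3a replicate 2 then lay above all genes.

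Genes that work with these enzymes more often had a peak in some list than the enzymes did. Of 37 genes that supply electrons and cofactors or encode other metabolising enzymes, 27 (73.0%) had a peak, with 14 of the 27 bound by METTL16 (51.9%, against 42.6% of all genes with a peak), 8 by eIF3a (29.6%, against 42.4%) and 15 by eIF3b (55.6%, against 60%). POR, the reductase that feeds electrons to microsomal P450s, and CYB5A were bound by METTL16 and eIF3b. GCLC, the catalytic subunit of glutathione synthesis, was found in all 6 lists with its strongest peak in the 5′ UTR, at 8.13-fold and 5.72-fold for METTL16, 4.01-fold and 2.38-fold for eIF3a, and 15.4-fold and 8.14-fold for eIF3b. Of 14 transcriptional regulators of the enzymes, 13 (92.9%) had a peak, and AHR, HNF4A, PPARA and RXRA were among those found in all 6 lists. The pregnane X receptor NR1I2, which senses drugs, was bound by eIF3b alone, with 1 peak per list, at 20.6-fold and 14.7-fold in the 3′ UTR. These too were shared values: VWF also had 20.6 in eIF3b replicate 1, and NR1I3 and FGB also had 14.7 in eIF3b replicate 2. Of 16 transporters, 11 (68.8%) had a peak and ABCC1, ABCC2 and ABCC3 were found in all 6 lists. These counts stand beside 51.5% of all annotated protein-coding genes.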

How the data were processed

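The authors aligned the reads of RIP and input libraries with STAR (GRCh38), and exomePeak with its default parameters gave the peaks; the inputs paired with each list, versions, multi-mapping and strand settings are not given in the sources used here. The deposited lists, 1 per RIP sample, gave each peak its exon blocks, a p-value (score column), log10 scores of p and adjusted p, and the fold, a ratio of RIP over input as the authors' caller wrote it. The highest adjusted p was 0.0501. The 6 inputs had no list of their own. Read depth is unknown, so no counting interval was computed.

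Here 54 symbols were matched to GENCODE release 44 with Python 3.11.15, and a peak took the region of its centre on the canonical transcript first, if at least 50% of its bases were exonic. Of 10830 names, 10325 matched a current and 466 an older symbol. Placement and tests were checked on simulated data. Groups of 2 samples were compared by exact permutation tests over samples, two-sided. The 30-base words were searched in all annotated transcripts. Alternatives were a minimum fold of 4, the 5000 peaks of smallest p, other denominators, bases for centres, genomic span, either replicate, single replicates left out and a replicate block. Chosen after seeing the data were the alternatives without CYP20A1, with the strongest peak per gene, with shared loci once and with every deposited row.

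Members and gene lists were chosen with earlier results of these data known. Named were genes with a peak in all 6 lists, genes bound by 1 protein with no peak in another's lists, the 3 highest folds per list, and genes in 1 list. CYP27A1, SULT2A1, ALDH1A1, SULT1A1, GSTK1 and the partner, regulator and transporter genes were named after their values were seen. Reads of UGT1A, SULT1A, GSTM, GSTT, CYP4F and UGT2B genes can be shared with near-identical copies. Some genes of these lists are not reported here by name.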

Additional observations from a re-analysis of the deposited data

How the results depend on the processing

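Of 141 alternatives over 15 results, 113 kept the result, 15 reversed a difference and 13 moved a count of bound genes. A difference was kept where its direction held, and a count where it stayed near the main count. No p was below 0.333, the smallest that 2 against 2 samples can give, so no alternative could pass a threshold of 0.05. With a fold of at least 4, the genes bound fell to 2 for METTL16, 3 for eIF3a and 4 for eIF3b, and with the 5000 peaks of smallest p per list to 5, 3 and 6. With a peak in either replicate they were 28, 44 and 45, and eIF3a bound 13 with shared loci counted once. With 1 replicate left out, the counts ran from 17 to 26, from 23 to 43 and from 27 to 41. With 5000 peaks per list the difference in the share of genes with a peak turned to 4.63 points for METTL16 minus eIF3a and 2.78 points for METTL16 minus eIF3b, where each list has the same number of peaks by construction; the cause was not tested. For eIF3a minus eIF3b, leaving out 1 replicate gave -20.4 to 16.7 points. With 1 replicate left out, METTL16 minus eIF3b ran from -3.87 to 34.5 points for the coding share and from -31.6 to 4.06 points for the 3′ UTR share, and METTL16 minus eIF3a ran from -7.75 to 37.8 bases for the width. All 3 width differences reversed with a fold of at least 4 (-53.0 bases for METTL16 minus eIF3a, -127.2 for METTL16 minus eIF3b and -74.2 for eIF3a minus eIF3b) and with 5000 peaks (-31.0, -97.2 and -66.2), and eIF3a minus eIF3b also with the genomic span (-135 bases) and with every deposited row (-14.2 bases). With the replicate number as a block (pairs of same-numbered samples, exact sign-flip test), METTL16 minus eIF3b in the share of genes with a peak was -23.1 points with p = 0.5, the smallest that 2 pairs can give; the block changed no call. Depth limits what a missing peak means, and 2 samples per protein allow no difference to pass a threshold of 0.05.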
